A study of Mus musculus with 55 samples.

Results

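Nnt, Gabra2, Wdfy1, Entpd4, Marchf1 and Cd59a are 6 genes on 6 different chromosomes, away from Pon1, whose levels differ among the 4 mouse lines compared here. They were taken by gene symbol from 19938 genes with a named probe set, and all 6 were among the 14950 genes that passed a filter on low levels and were tested. Each was read by 1 probe set. Because the genes were chosen for differing between lines in these same arrays, their levels by line are a description and carry no test. Tests are given only for treatment, array date, neighbouring genes and other genes of their pathways, and the pathway lists too were drawn up with earlier results of these data known.

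The study asked how the pesticide metabolite chlorpyrifos oxon (CPO) acts on the developing cerebellum when the enzyme that breaks it down is present, missing or human. RNA from bisected cerebella was hybridised to 55 Affymetrix Mouse Gene ST 1.0 arrays. All mice carry the strain label C57Bl/6, with no substrain named, and were sampled at postnatal day 22 after daily injections under the skin from day 4 to day 21. Wild type mice (Pon1+/+, WT) gave 15 arrays, of which 6 were from vehicle (DMSO), 6 from CPO at 0.35 mg/kg/day and 3 from CPO at 0.5 mg/kg/day. Mice labelled Pon1-/- (KO) gave 12 arrays, as 4, 5 and 3. Mice labelled tgHuPON1Q192 (Q192) and tgHuPON1R192 (R192) carry human paraoxonase 1 and gave 14 arrays each, as 4, 5 and 5. The labels name neither the promoter of these transgenes nor the mouse Pon1 alleles beside them. They do not say that every array is a separate animal, so a p-value here speaks only to the spread among these arrays, which may in part be technical.

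Pon1, which checks the labels, had a mean log2 level of 5.19 ± 0.24 (SD, n = 15) in WT and 10.08 ± 0.19 (n = 12) in the arrays labelled KO, with 10.10 ± 0.14 and 10.13 ± 0.11 in Q192 and R192 (n = 14 each). The WT mean lies below the filter level of 6.44, and the order of WT and KO goes against their labels at this gene. Whether the probe set lies in the disrupted part of Pon1 was not given in the labels. WT and KO below therefore mean arrays so labelled, and every direction drawn from them rests on these labels. The tissue label was checked against marker genes. All 12 granule neuron markers and all 9 measured Purkinje cell markers were above the filter, with mean levels per array of 9.44 to 11.70 and 9.62 to 11.28. Of 11 measured brainstem and midbrain neuron markers, 10 were above it, with means of 6.72 to 7.85 over the WT arrays and 7.26 to 7.93 over Q192. WT vehicle replicate 4 had the lowest granule neuron mean of the 55 arrays (9.44) and the second highest brainstem mean (7.85). In contrast, WT vehicle replicate 1 and WT 0.35 replicates 1 and 2 had the 3 highest granule neuron means (11.52 to 11.70), with brainstem means of 6.72 to 6.93. KO 0.35 replicate 5 carries a description number that it shares with R192 0.35 replicates 3 and 4. In such bulk tissue fewer cells of a type and less RNA per cell cannot be told apart.

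Inbred C57BL/6 mice have been kept as separate colonies for many generations and have gathered different mutations. Nnt and Gabra2 are the best known examples: C57BL/6J mice carry a deletion inside Nnt and a small intronic deletion that lowers Gabra2, and other substrains do not. Nnt makes NADPH in the inner mitochondrial membrane, and Gabra2 is a subunit of the GABA-A receptor, the chloride channel of fast inhibition. Entpd4 is a nucleotide-hydrolysing enzyme of the Golgi and lysosomes, Wdfy1 a FYVE protein of early endosomes that takes part in Toll-like receptor signalling, Marchf1 a ubiquitin ligase that removes MHC class II from the cell surface, and Cd59a an anchored surface protein that blocks the membrane attack complex of complement.

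Across the 4 lines the 6 genes shared one feature: the means of WT and of the arrays labelled KO were nearly level, and the Q192 mean stood apart. Between those labelled KO and WT the fitted differences ran from -0.14 (Cd59a) to 0.05 (Marchf1) on the log2 scale. In Q192, Nnt, Gabra2, Wdfy1, Marchf1 and Cd59a had lower means than in WT, and Entpd4 a higher one. R192 did not form 1 pattern. It lay between WT and Q192 for Nnt, Gabra2 and Entpd4, at the WT mean for Wdfy1, and slightly above WT for Marchf1 and Cd59a. Of all genes tested, 0.455% passed between Q192 and WT, 0.87% between R192 and WT, 0.0736% between R192 and Q192 and 0.375% between WT and arrays labelled KO. These shares are background only, since the rule that chose the 6 genes used the same comparisons.

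**Figure D1:**
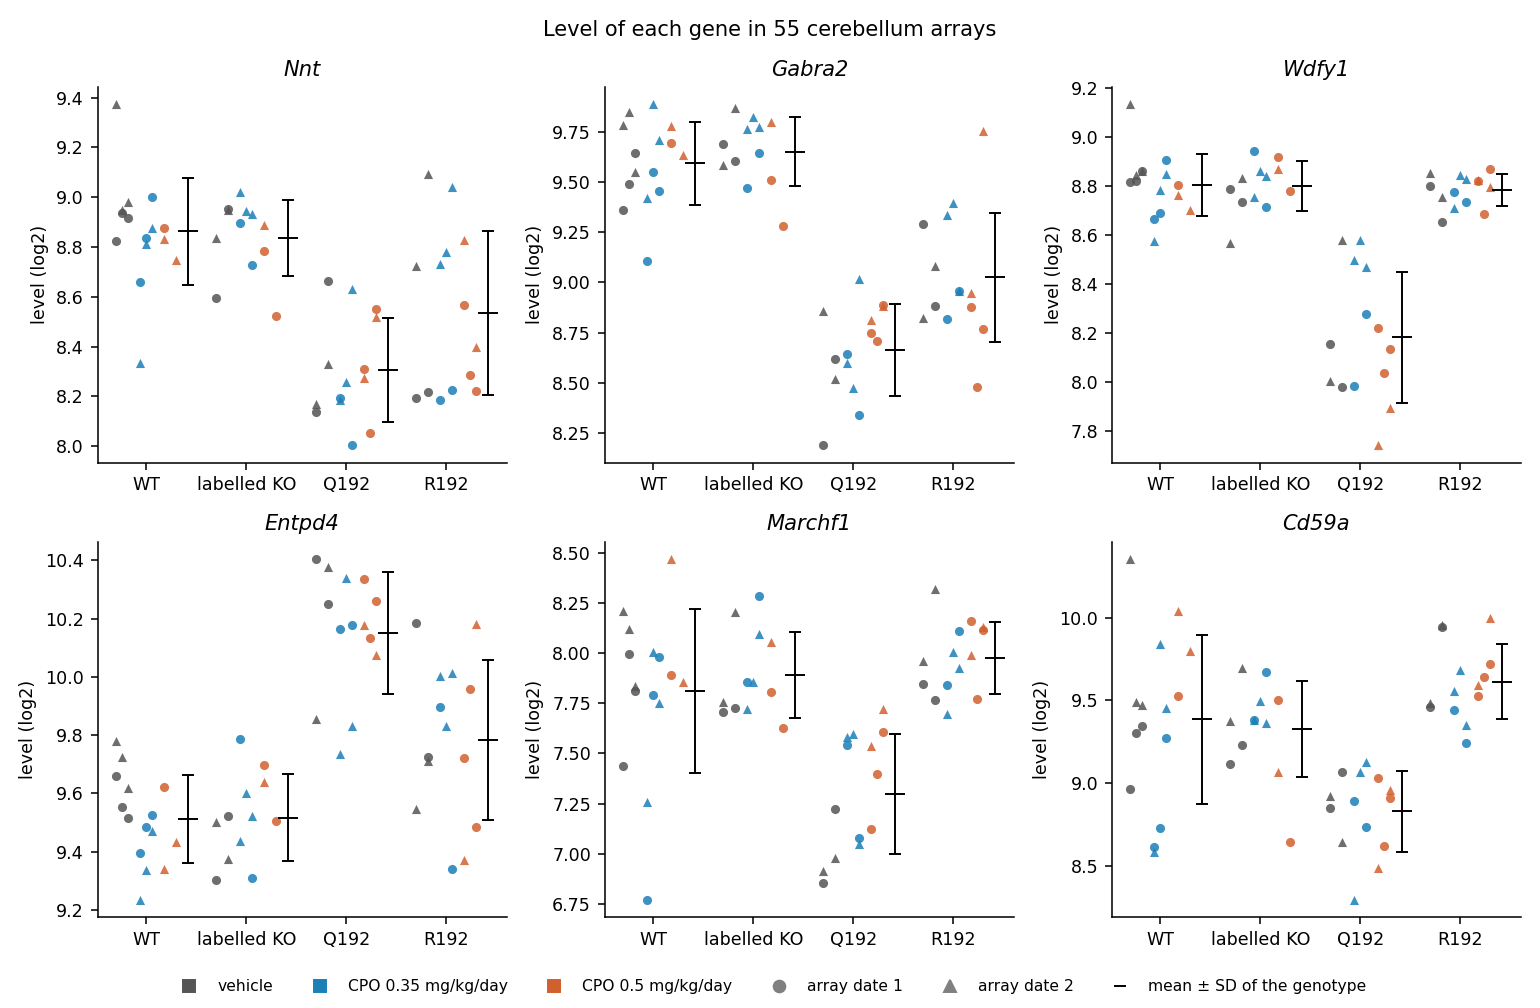
Log2 level of each of the 6 genes (vertical axes, own range for each gene) in all 55 arrays, grouped by line, with colour for treatment, shape for array date, and bars for the mean ± SD of each line. The means of WT and of the arrays labelled KO lie together for every gene, the Q192 mean lies apart, and the R192 arrays of Nnt, Gabra2 and Entpd4 spread over the range between them.

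Nnt was lowest in Q192 and widest in R192. In the 15 WT arrays it ran from 8.34 to 9.37 with a median of 8.88, and in the 12 arrays labelled KO from 8.52 to 9.02 with a median of 8.89. Q192 ran from 8.003 to 8.66 (median 8.27, n = 14), and R192 from 8.18 to 9.09 (median 8.48, n = 14). All 12 arrays labelled KO lay inside the WT range, and 10 of 14 Q192 arrays lay below it. R192 covered both, with 6 arrays below the lowest WT array, 6 above the highest Q192 array and 8 inside the Q192 range. The means were 8.86 ± 0.22, 8.84 ± 0.15, 8.31 ± 0.21 and 8.53 ± 0.33 (SD) for WT, labelled KO, Q192 and R192, which is 1.46-fold lower in Q192 than in WT (-0.54 ± 0.09 SE) and 1.24-fold lower in R192 (-0.31 ± 0.09). WT and labelled KO did not differ beyond their spread, and the R192 mean differed from those of WT and Q192 (R192 minus Q192 0.23 ± 0.09 SE) by less than the SD of its own arrays.

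Gabra2 had the widest difference between line means of the 6 genes. WT arrays ran from 9.11 to 9.89 (median 9.63), labelled KO from 9.28 to 9.87 (median 9.67), Q192 from 8.19 to 9.02 (median 8.68) and R192 from 8.48 to 9.75 (median 8.95). Every Q192 array lay below every WT array and every array labelled KO. R192 again filled the space between, with 10 of 14 arrays below the lowest WT array and 5 of 14 above the highest Q192 array. The means were 9.59 ± 0.21, 9.65 ± 0.17, 8.66 ± 0.23 and 9.03 ± 0.32 (SD), a difference of -0.94 ± 0.08 (SE) or 1.92-fold for Q192 against WT and of -0.56 ± 0.08 or 1.48-fold for R192 against WT. WT and labelled KO did not differ beyond their spread.

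Entpd4 showed the opposite direction. Its levels ran from 9.23 to 9.78 in WT (median 9.51), from 9.30 to 9.79 in labelled KO (median 9.51), from 9.74 to 10.41 in Q192 (median 10.18) and from 9.34 to 10.19 in R192 (median 9.78). Only 1 of the 14 Q192 arrays fell inside the WT range, while 7 of 14 R192 arrays were inside it and the other 7 above it. Q192 was 1.57-fold higher than WT (0.65 ± 0.08 SE, means 10.15 ± 0.21 and 9.51 ± 0.15 SD) and R192 1.22-fold higher (0.29 ± 0.08, mean 9.78 ± 0.28). Mice have a near-identical copy of this gene, Entpd4b, which has 0 probe sets in the annotation used, so signal of the 2 copies cannot be told apart here.

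Wdfy1 was low in 1 line only. WT arrays ran from 8.58 to 9.13 (median 8.82), labelled KO from 8.57 to 8.94 (median 8.81), R192 from 8.65 to 8.87 (median 8.80) and Q192 from 7.74 to 8.58 (median 8.15). Each R192 array lay inside the WT range, and all 14 lay above all 14 Q192 arrays. In Q192, 12 of 14 arrays were below every WT array, and the highest just reached that range. The line means of WT, labelled KO and R192 (8.80 ± 0.13, 8.80 ± 0.10 and 8.78 ± 0.07) did not differ beyond their spread, and Q192 (8.18 ± 0.27) was 1.52-fold lower than WT (-0.61 ± 0.06 SE).

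Marchf1 and Cd59a shared this order, with more spread in WT. Marchf1 ran from 6.77 to 8.47 in WT (median 7.86), from 7.63 to 8.29 in labelled KO (median 7.83), from 6.85 to 7.72 in Q192 (median 7.31) and from 7.69 to 8.32 in R192 (median 7.98). All 14 Q192 arrays were inside the wide WT range, but 13 of them were below every R192 array and 13 below every array labelled KO. The Q192 mean of 7.30 ± 0.30 was 1.48-fold below that of WT (7.81 ± 0.41, difference -0.56 ± 0.10 SE) and 1.61-fold below that of R192 (7.98 ± 0.18, R192 minus Q192 0.69 ± 0.10).

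Cd59a ran from 8.58 to 10.36 in WT (median 9.45), from 8.64 to 9.69 in labelled KO (median 9.38), from 8.30 to 9.13 in Q192 (median 8.90) and from 9.24 to 9.997 in R192 (median 9.58). Q192 and R192 did not overlap. Of the 14 Q192 arrays, 12 were inside the WT range, and all 14 R192 arrays were. The means were 9.39 ± 0.51, 9.33 ± 0.29, 8.83 ± 0.24 and 9.61 ± 0.23 (SD), which is 1.53-fold lower in Q192 than in WT (-0.61 ± 0.12 SE) and 1.73-fold lower than in R192 (R192 minus Q192 0.79 ± 0.12). WT overlapped both labelled KO and R192 with differences below its SD, while R192 was above labelled KO by 0.32 ± 0.12 (SE), more than the SD of either line, with 4 of 12 arrays labelled KO below every R192 array.

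In WT the extremes of Marchf1 and Cd59a were the arrays that stood apart in the cell type markers. The 3 lowest WT arrays of Marchf1 were 0.35 replicates 1 and 2 and vehicle replicate 1, at 6.77, 7.26 and 7.44, and the next was at 7.75. The same 3 arrays were among the 4 lowest of Cd59a, at 8.61, 8.58 and 8.96, and they were those with the 3 highest granule neuron means. The highest WT array of Cd59a (10.36) was vehicle replicate 4, the one with the lowest granule neuron mean. With the mean of the brainstem markers as a covariate, the difference of Q192 from WT was -0.63 ± 0.10 (SE) for Marchf1 and -0.74 ± 0.10 for Cd59a. This difference ran from -0.98 to 0.59 over the 6 genes, each in the direction it had without the covariate. The genes were chosen for these differences, so a kept direction was close to given in advance and is a description only. Granule neuron means were not entered, and the part of cell types in these differences was not tested.

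The share of each gene's spread that lay between lines was measured next, as sums of squares over the 55 arrays. Between lines lay 75.6% of the spread of Gabra2, 74.9% of Wdfy1, 63.8% of Entpd4, 50.4% of Nnt, 46.5% of Marchf1 and 43.3% of Cd59a, against a median of 6.75% over all genes tested. This too is a description, since it restates the choice. What lay between treatments within a line was 2.81% (Gabra2) to 15.1% (Cd59a), shares that the large part between lines holds down in advance. For Nnt, 30.2% lay between description numbers within a group and 14.1% within a number.

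Whether the levels were bimodal within a line was asked of each gene in each line. The arrays of a line were sorted, and the widest gap that left at least 2 arrays on each side was taken; a gap of 0.5 or more on the log2 scale counted as a split. Of the 24 pairs of gene and line, 0 were split, where 0.565% of such pairs were over all genes tested (1.38% in WT, 0.816% in labelled KO, 0.0535% in Q192 and 0.0134% in R192). The widest gaps were 0.32 for Marchf1 and 0.31 for Cd59a, both in WT and both at the edge of the 3 or 4 low arrays named above. Without WT vehicle replicate 1 the count was 1, and with a gap of 0.3 it was 2.

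A gap of 0.5 is close to the whole difference of Q192 from WT for Nnt (-0.54), Marchf1 (-0.56), Wdfy1 (-0.61), Cd59a (-0.61) and Entpd4 (0.65). The rule could hardly call a split of these genes. With 0.565% of pairs split over all genes, 0 of 24 is also the usual outcome. The count therefore cannot tell whether levels within a line were bimodal. Smaller gaps in R192 were rare among genes: 0.22 for Cd59a, 0.21 for Nnt and 0.21 for Gabra2, where 0.609%, 0.696% and 0.783% of genes tested had a gap as large in that line, against 4.44% and 4.78% for the WT gaps of Marchf1 and Cd59a. The R192 gaps left 3, 2 and 4 of 14 arrays on the upper side. In R192 these 3 genes had SDs above those of 98.3%, 99.8% and 99.7% of genes. A wide spread by itself makes wide gaps, so these gaps do not show 2 levels.

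The spread within lines was then set beside that of all genes tested. In R192 the SD of Nnt (0.33) was larger than that of 99.8% of genes tested, and those of Gabra2 (0.32) and Entpd4 (0.28) larger than 99.7% and 99.4%. Wdfy1 was at the other end in that line, with an SD of 0.07 that only 5.9% of genes went below. In Q192 the widest were Marchf1, with an SD of 0.30 that was larger than 99.2% of genes, and Wdfy1, with one of 0.27 that was larger than 98.5%. In WT the SD of Cd59a (0.51) exceeded that of 98.5% of genes and that of Marchf1 (0.41) 96.4%. In labelled KO the SDs of the 6 genes exceeded those of 18.2% (Wdfy1) to 92.3% (Cd59a) of genes. No SD was tested against another.

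**Figure D2:**
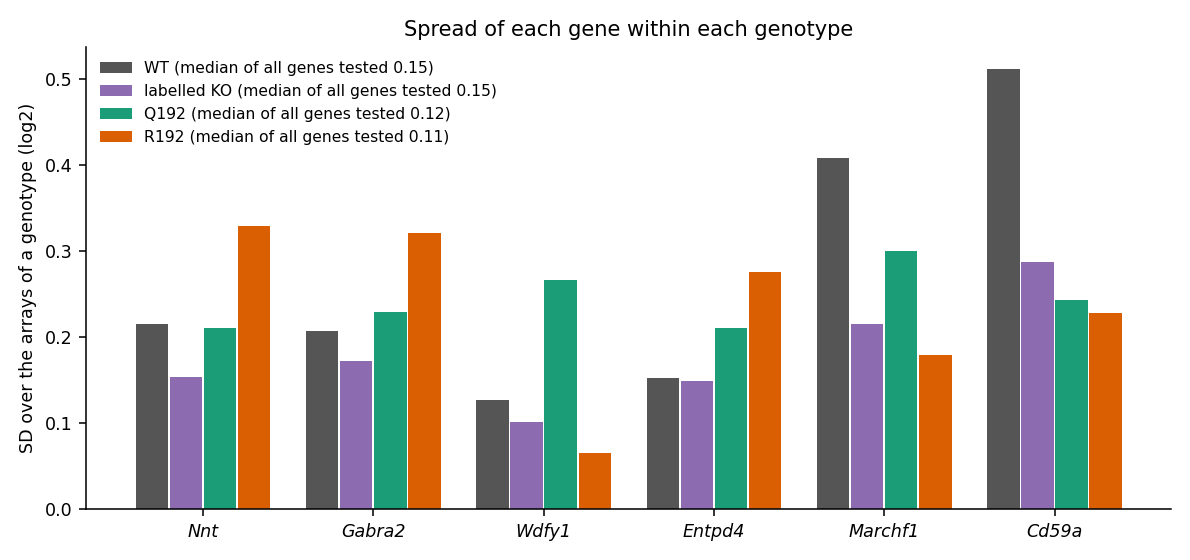
SD of the log2 level over the arrays of each line (bars from 0) for the 6 genes, with the median SD of all genes tested in the key. Nnt, Gabra2 and Entpd4 are widest in R192, near 0.3, while Wdfy1 has an SD of 0.07 there and 0.27 in Q192; Marchf1 and Cd59a are widest in WT.

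Single R192 arrays did not take the same side for the 3 wide genes. The array from 0.5 replicate 5 had the highest Gabra2 of the line (9.75, inside the WT range) together with an Entpd4 of 10.18, inside the Q192 range, and an Nnt of 8.40. Vehicle replicate 1 likewise had a high Gabra2 (9.29) and the highest Entpd4 (10.19), with an Nnt of 8.19. In 0.35 replicate 2 the combination was an Entpd4 of 9.34, inside the WT range, with an Nnt of 8.22, below it. At 0.5 replicate 4 both Nnt (8.83) and Entpd4 (9.37) were inside the WT range while Gabra2 (8.95) was below it. These arrays were picked as examples after their values were seen.

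Arrays that share a description number gave a further view of the gaps. The meaning of this number was not given in the labels; 17 numbers were shared by more than 1 array. In R192 the 4 arrays above the widest Gabra2 gap, which lay between 9.08 and 9.29, were 0.35 replicates 3 and 4, which share a number (9.33 and 9.39), 0.5 replicate 5 and vehicle replicate 1. For Wdfy1 in Q192 the 4 arrays above the gap between 8.28 and 8.47 were 0.35 replicates 3, 4 and 5 and vehicle replicate 4, all from array date 2. In both cases 0 of the shared numbers of the line (4 in R192, 5 in Q192) had arrays on both sides. These were 2 of 7 such cases among the 24 pairs of gene and line, and in the other 17 from 1 to 3 numbers had arrays on both sides, as 3 of 5 did for Nnt in Q192. Arrays of 1 number could also differ: Nnt in R192 0.5 replicates 3 and 4 was 8.22 and 8.83, a difference of 0.60. These arrays were from array dates 1 and 2. The other R192 pairs that share a number were each from 1 date and differed in Nnt by 0.05, 0.28 and 0.37.

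The array labelled KO that shares a number with R192 arrays was looked at for these genes. For Gabra2 it was at 9.64 and for Entpd4 at 9.31, both within the other 11 arrays labelled KO, while the R192 arrays of its number were at 9.33 and 9.39 for Gabra2 and at 9.83 and 10.003 for Entpd4. Its Marchf1 of 8.29 lay just above the other arrays labelled KO (7.63 to 8.21).

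In R192 the level of Nnt parted by array date. The 7 arrays of date 1 were at 8.18, 8.19, 8.22, 8.22, 8.22, 8.28 and 8.57, and the 7 arrays of date 2 at 8.40, 8.72, 8.73, 8.78, 8.83, 9.04 and 9.09. The dates overlapped only through 0.5 replicate 1 (8.57) and 0.5 replicate 5 (8.40). Only the description number of 0.5 replicates 3 and 4 had R192 arrays on both dates. Elsewhere in this line date and number cannot be told apart. On date 1 the R192 mean (8.27 ± 0.13, n = 7) was that of Q192 (8.27 ± 0.25, n = 7), and on date 2 (8.80 ± 0.23, n = 7) it was near that of WT (8.86 ± 0.29, n = 8). A limma fit with a date effect for each line, added after these values were seen, gave a difference of date 2 minus date 1 of 0.53 ± 0.11 (SE) in R192, which passed (limma, adjusted p = 0.0235), where 0.14% of genes passed.

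In the other lines the date difference of Nnt was -0.01 ± 0.10 in WT, 0.15 ± 0.11 in labelled KO and 0.06 ± 0.11 in Q192, and none passed (limma, adjusted p = 0.965, 0.648 and 0.9998), where 5.55%, 0.0% and 0.00669% of genes passed. The difference between lines was itself tested and did not pass: R192 minus WT was 0.54 ± 0.15 (adjusted p = 0.0905, where 0.1% of genes passed), R192 minus labelled KO 0.38 ± 0.16 (adjusted p = 0.423) and R192 minus Q192 0.47 ± 0.15 (adjusted p = 1). The call in R192 was lost on leaving out any of 6 arrays (0.35 replicates 1 and 2, 0.5 replicates 3 and 4, vehicle replicates 1 and 4), with differences of 0.48 to 0.63 over all 14 arrays left out in turn. Granule neuron means were 10.90 ± 0.09 on date 1 and 10.83 ± 0.18 on date 2 in R192, and brainstem means 7.51 ± 0.14 and 7.54 ± 0.10. Their part in the difference was not tested. The other 5 genes had no date difference in R192 that passed, Gabra2 coming nearest with 0.30 ± 0.12 (limma, adjusted p = 0.378).

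**Figure D3:**
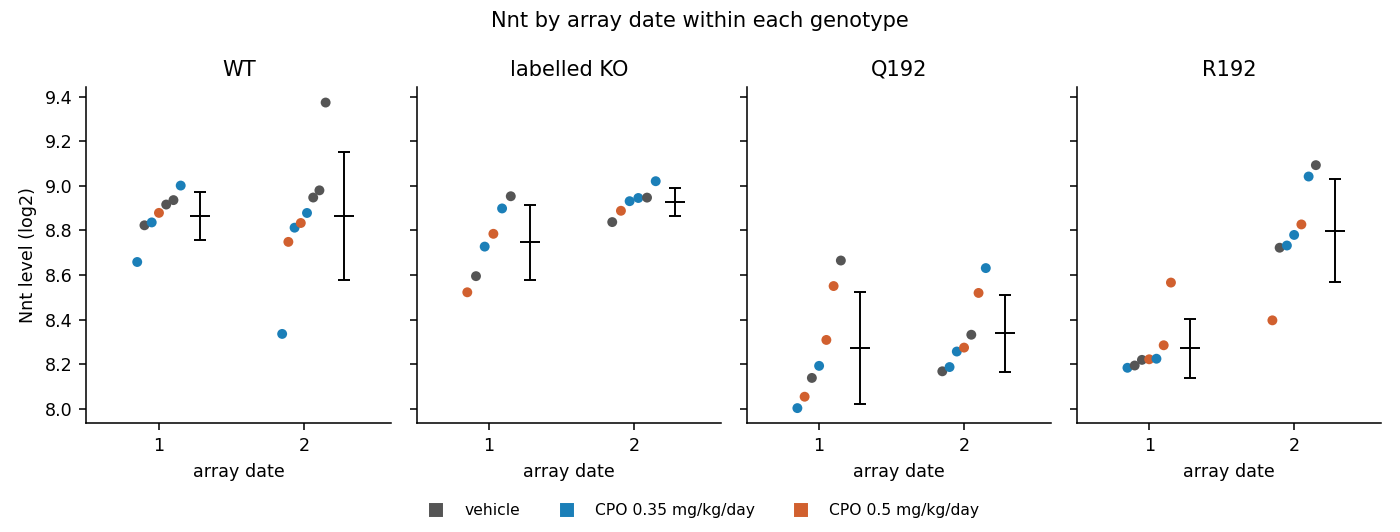
Log2 level of Nnt in each array (points, coloured by treatment, sorted within a date) against array date in each line, with the mean ± SD. In R192 date 1 lies between 8.18 and 8.57 and date 2 between 8.40 and 9.09, so the dates overlap there through 1 array of each.

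CPO was tested in each line, and 0 of the 48 pairs of gene and comparison passed (limma, 6 genes, 2 doses and 4 lines), where 0.13% of pairs passed over all genes (1.04% at 0.5 in WT, 0.00669% at 0.35 in WT and 0.0% in each of the others). At an unadjusted p under 0.05 there were 3 of 48, against 10.2% of pairs over all genes. The residual SDs of the 6 genes exceeded those of 62.7% (Wdfy1) to 98.1% (Cd59a) of genes. This lowers the power to call them, so low counts do not show a weaker response than in other genes. On the mean of the 4 lines 0 of 12 passed (background 0.0%), with 0 at an unadjusted p under 0.05, where 3.34% of pairs over all genes were. The difference of the CPO effect between lines, taken for labelled KO against WT and for R192 against Q192, passed in 0 of 24 (background 2.3%, which is 9.2% at 0.5 and 0.00669% at 0.35 for labelled KO against WT and 0.0% for the rest), with 0 at an unadjusted p under 0.05 against 17.3% of pairs over all genes. The mean CPO effect over 4 lines ran from -0.16 (Cd59a at 0.35) to 0.18 (Marchf1 at 0.5) with 95% intervals of -0.37 to 0.04 and -0.004 to 0.37.

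**Figure D4:**
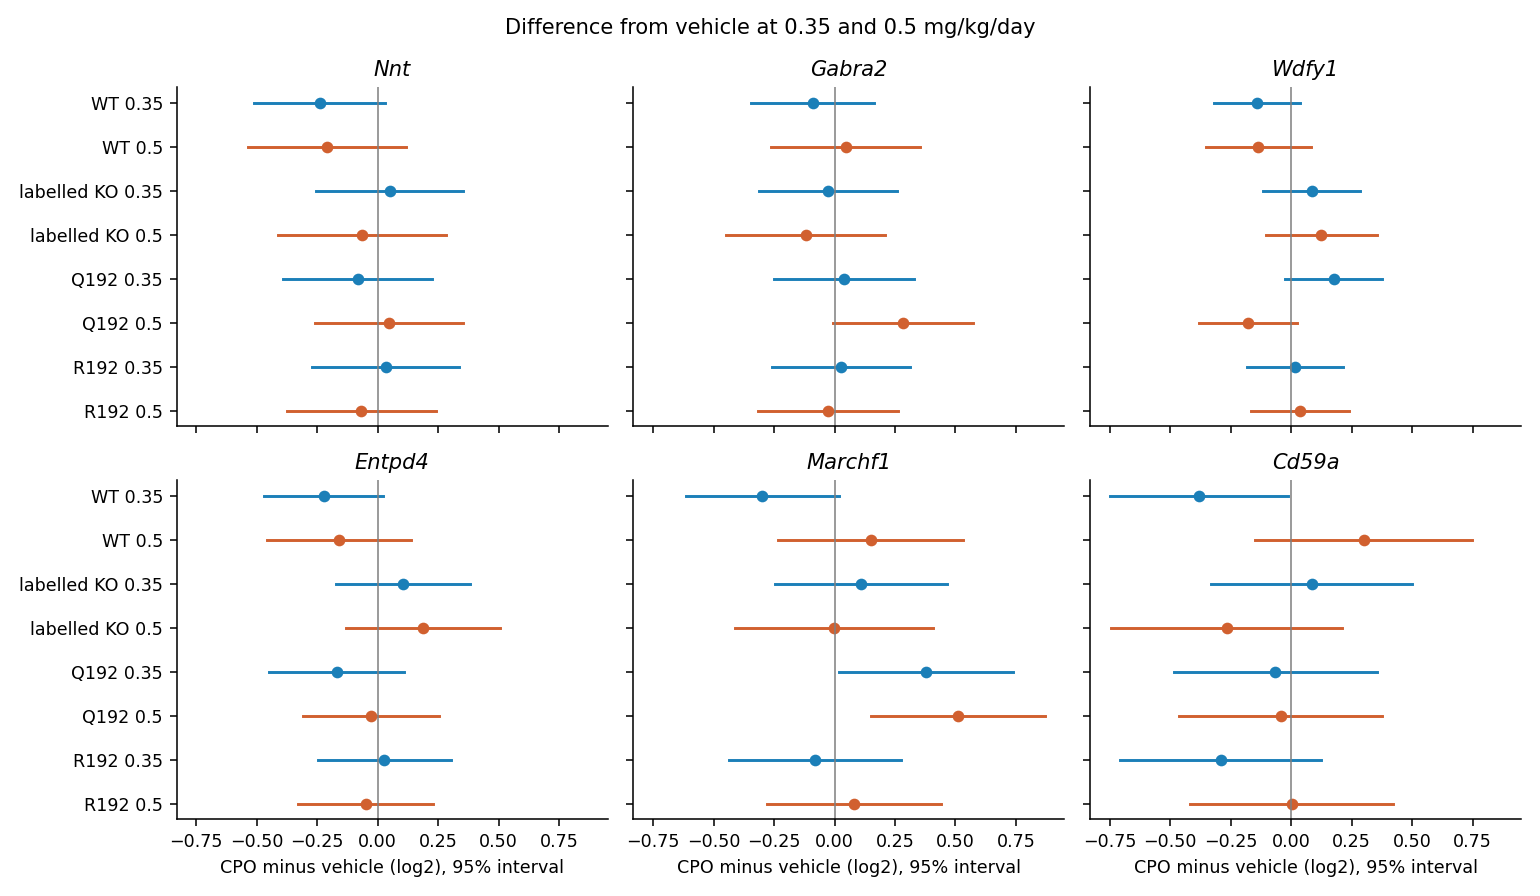
CPO minus vehicle on the log2 scale (points) with 95% intervals (lines) for each gene, line and dose in mg/kg/day. All intervals but 3 include 0: those for Marchf1 in Q192 at both doses, and for Cd59a in WT at 0.35.

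Marchf1 in Q192 had the largest difference between CPO and vehicle. Vehicle arrays were at 6.85, 7.22, 6.91 and 6.98, arrays at 0.35 mg/kg/day at 7.54, 7.08, 7.58, 7.60 and 7.05, and arrays at 0.5 mg/kg/day at 7.12, 7.40, 7.61, 7.54 and 7.72. The vehicle arrays are the low ones, overlapping both dose groups through vehicle replicate 2 only. At 0.5 the difference was 0.51 ± 0.18 (SE, 95% interval 0.15 to 0.87) and at 0.35 it was 0.38 ± 0.18 (0.02 to 0.74), and neither passed (limma, adjusted p = 0.332 and 0.999). With array quality weights the difference at 0.5 did pass (limma, adjusted p = 0.0341). The share of all genes passing under these weights is not given here. Neighbour and list genes also had more calls under them, so this pass is not particular to Marchf1. In R192 the differences were 0.08 ± 0.18 and -0.08 ± 0.18. Granule neuron means in Q192 were 11.13 ± 0.14 in vehicle, 10.97 ± 0.04 at 0.35 and 10.73 ± 0.20 at 0.5. Brainstem means there were 7.61 ± 0.18, 7.54 ± 0.17 and 7.67 ± 0.18. The part of these marker levels in the Marchf1 differences was not tested.

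Cd59a in WT at 0.35 was the other gene with an unadjusted p under 0.05. Vehicle arrays ran from 8.96 to 10.36 (median 9.41, n = 6) and 0.35 arrays from 8.58 to 9.84 (median 9.001, n = 6), so the groups overlapped. The difference was -0.38 ± 0.18 (SE) and did not pass (limma, adjusted p = 0.229). At 0.5 in WT it was 0.30 ± 0.22 (adjusted p = 0.435), of the other sign. Brainstem means were 7.22 ± 0.38 in the 0.35 arrays and 7.55 ± 0.34 in vehicle arrays of WT, and granule neuron means 11.26 ± 0.31 and 10.83 ± 0.76. Their part in the difference was not tested.

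For Nnt, Gabra2, Wdfy1 and Entpd4 the CPO differences ran from -0.24 (Nnt in WT at 0.35) to 0.28 (Gabra2 in Q192 at 0.5, 95% interval -0.01 to 0.57). Nnt in WT was at 8.996 ± 0.19 (n = 6) in vehicle, 8.75 ± 0.23 (n = 6) at 0.35 and 8.82 ± 0.07 (n = 3) at 0.5. Wdfy1 in Q192 was at 8.18 ± 0.28 (n = 4), 8.36 ± 0.24 (n = 5) and 8.01 ± 0.19 (n = 5), the doses lying on either side of vehicle.

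The 5 nearest tested genes on each side of the 6 genes along their chromosomes were compared between lines in the same fit. Of these 60 neighbours 2 (3.33%) passed in any of the 6 pairs of lines, against 6.19% of all genes tested. Tmem267, the fourth gene after Nnt on chromosome 13, was 0.51 ± 0.12 higher in Q192 than in labelled KO (limma, adjusted p = 0.0382), with levels of 8.99 to 9.48 in Q192 (median 9.27) and 8.002 to 9.16 in labelled KO (median 8.81), which overlap. D430041D05Rik, next to Cd59a on chromosome 2, was lower by 0.32 ± 0.10 in R192 than in labelled KO (difference -0.32, adjusted p = 0.039). With the brainstem markers as a covariate neither passed (0.45, adjusted p = 0.175, and -0.25, adjusted p = 0.0596). Within array date 1 alone or date 2 alone 0 neighbours passed, the difference of Tmem267 being 0.58 and 0.43 and that of D430041D05Rik -0.31 and -0.36. The count was 0 without KO 0.35 replicate 2 or 4 or KO 0.5 replicate 2 or 3, 6 without KO 0.35 replicate 5 and 4 without WT vehicle replicate 4.

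None of the GABA-A receptor genes beside Gabra2 on chromosome 5 passed in any pair of lines. Gabrg1, Gabra4 and Gabrb1 differed from WT by 0.04 ± 0.11, -0.10 ± 0.11 and -0.03 ± 0.06 in Q192 and by 0.21 ± 0.10, 0.02 ± 0.11 and 0.11 ± 0.06 in R192, and the lowest adjusted p over the 6 pairs of lines was 0.0875 (limma, Gabrg1, R192 minus labelled KO 0.30 ± 0.11). Cd59b, the duplicate that lies next to Cd59a and is mostly known from testis, had a difference of -0.25 ± 0.06 between Q192 and WT, which did not pass (limma, adjusted p = 0.0751). As a near copy its signal may not be separable from that of Cd59a.

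**Figure D5:**
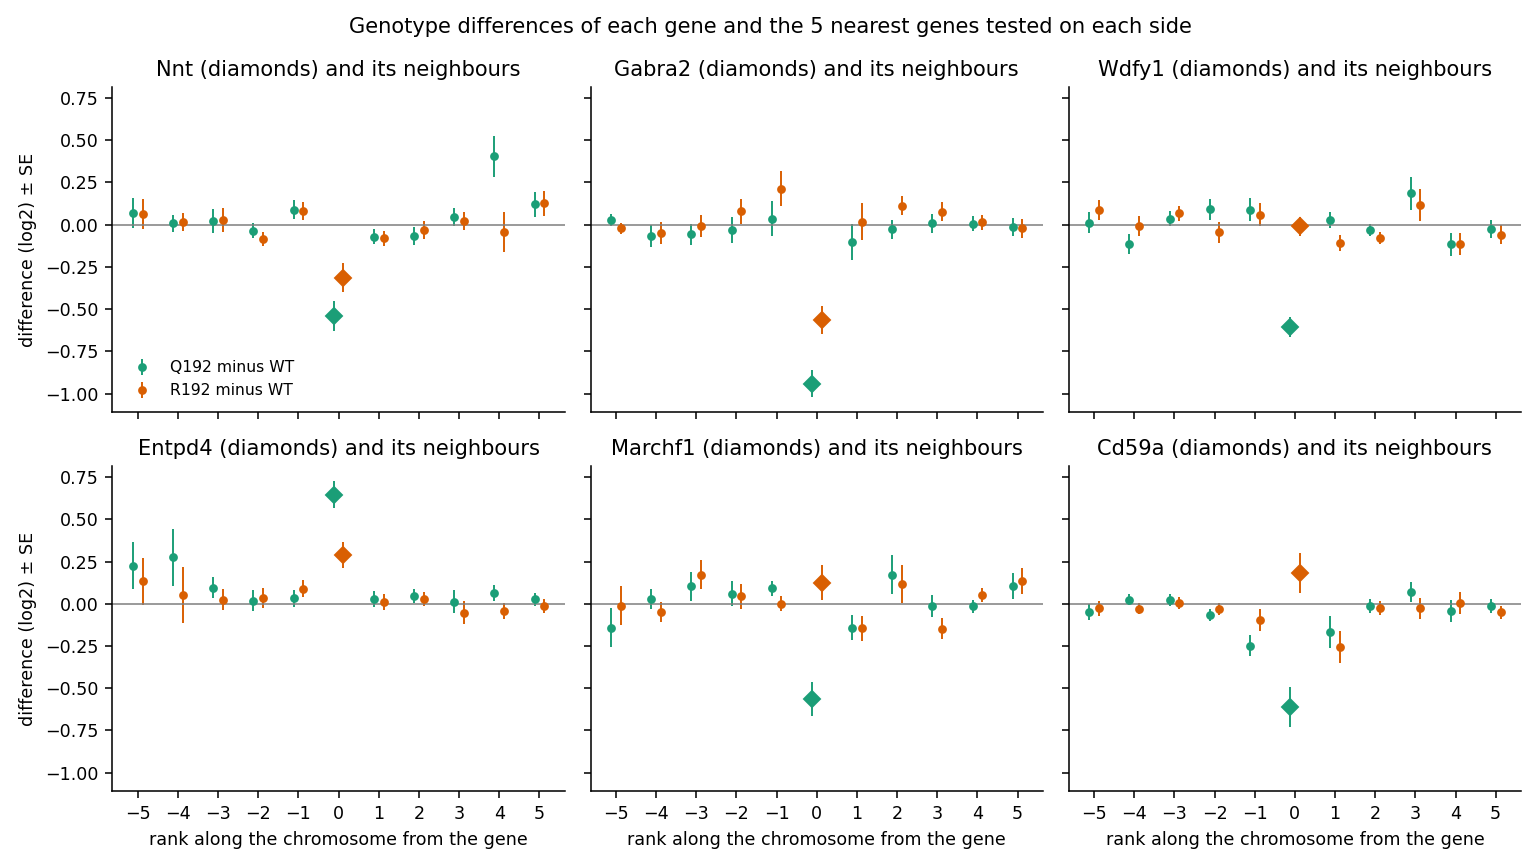
Difference from WT (log2 ± SE) of each of the 6 genes (diamonds) and its 5 nearest tested genes on each side (circles), by rank along the chromosome, for Q192 and R192. The neighbour farthest from 0 is Tmem267, at rank 4 from Nnt, with 0.40 in Q192. This is a mean over treatments and is not even among them. Its means in vehicle, at 0.35 and at 0.5 were 8.51, 9.25 and 8.84 in WT, and 9.30, 9.26 and 9.19 in Q192.

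Genes of the pathways in which the 6 genes act were counted in the same way. Of 118 listed genes 86 were tested, and 9 (10.5%) passed in any pair of lines, against 6.19% of all genes. Since the lists were drawn up with earlier results of these data known, this count is no support for an excess. The 9 include Dock2, which is taken up below. All 9 passed between R192 and labelled KO, where 5.61% of all genes did, and Dock2 also between Q192 and labelled KO (background 0.401%). Counted as calls over the 6 pairs of lines they were 10, where 1.3% of gene and pair combinations passed over all genes. On array date 1 alone there were 0 such calls and on date 2 alone 1. For CPO within a line 0 of 688 pairs of list gene and comparison passed in this fit (limma), and 71 (10.3%) had an unadjusted p under 0.05, beside 10.2% over all genes. In the difference of the CPO 0.5 effect between labelled KO and WT 7 of the 86 (8.14%) passed, where 9.2% of all genes did: Cd46, Csmd3, Pikfyve and Zfyve16 with a lower CPO effect in labelled KO than in WT (-0.78, -0.83, -0.36 and -0.55) and Hgs, Entpd6 and Cyfip2 with a higher one (0.59, 0.63 and 0.62; limma, adjusted p from 0.0370 to 0.048). In the other 3 differences of CPO effects 0 of the 86 passed, with 23, 3 and 1 at an unadjusted p under 0.05. The list medians between Q192 and WT lay from -0.05 to 0.04, beside -0.004 for all genes.

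In the list of mitochondrial NADPH and redox genes, where Nnt belongs, 3 of 19 tested were higher in R192 than in labelled KO and 0 lower. Of all genes tested, 5.61% passed in this pair in either direction, and their share in each direction is not given here. Gpx4, a peroxidase of membrane lipids, was 0.21 ± 0.05 higher (limma, adjusted p = 0.00804), Mthfd2l, a mitochondrial folate enzyme that makes NADPH, 0.33 ± 0.08 (adjusted p = 0.0117) and Nadk2, the mitochondrial NAD kinase, 0.18 ± 0.05 (adjusted p = 0.0209). Between Q192 and WT 0 of the 19 passed, where 0.455% of all genes did. Of 11 other GABA-A receptor subunits and 14 complement genes 0 passed in any pair.

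Among nucleotide-hydrolysing enzymes 1 of 11 passed, Entpd6, a Golgi nucleotidase (R192 minus labelled KO -0.18 ± 0.06, limma, adjusted p = 0.0484). Of the MARCH ligases and MHC class II genes 1 of 13 passed, Marchf6, a ligase of the endoplasmic reticulum (-0.18 ± 0.04, adjusted p = 0.0114). Of FYVE proteins and Toll-like receptor genes 2 of 16 passed, Hgs, which sorts ubiquitinated cargo on endosomes (-0.24 ± 0.07, adjusted p = 0.0343), and Wdfy3, a scaffold of autophagy (-0.20 ± 0.05, adjusted p = 0.00941). All 4 were lower in R192 than in labelled KO, where 5.61% of all genes passed in either direction. Without a share for each direction over all genes, the shared direction is a description only. The call of Entpd6 was lost in 35 of the 55 fits that left out 1 array, and that of Hgs in 10. Without KO 0.35 replicate 5 the calls of list genes over the 6 pairs of lines were 19 instead of 10, and without KO 0.5 replicate 3 they were 5.

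Of 6 further genes known for variants between C57BL/6 substrains, 2 were tested. Cyfip2, a regulator of actin at synapses, was lower in R192 than in labelled KO (difference -0.25 ± 0.08, limma, adjusted p = 0.0392, lost in 14 of the 55 fits without 1 array). Dock2, an exchange factor for Rac in immune cells, was higher than in labelled KO by 0.33 ± 0.07 in Q192 (adjusted p = 0.00485) and 0.36 ± 0.06 in R192 (adjusted p = 0.000777). Dock2 had a fitted mean of 6.26 in labelled KO, below the filter level of 6.44. In Q192 and R192 it was above that level (6.59 and 6.63). Its passing the filter and its difference are therefore not independent. This is a further reason to draw nothing from the count of 9. On array date 1 alone the differences of Dock2 were 0.37 and 0.33, and on date 2 alone 0.27 and 0.39 (limma, adjusted p from 0.0618 to 0.834).

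Lastly, the genes whose 12 group means were most like those of each gene were found, by the root mean square difference of centred log2 means. The 6 genes were often nearest to each other. For Gabra2 the nearest was Nnt (0.20), and with its sign turned Entpd4 (0.20). For Marchf1 it was Cd59a (0.17), and for Wdfy1 it was Nnt (0.18) and then Marchf1 (0.18). Entpd4 had C1qtnf12 first (0.17) and, with the sign turned, Nnt (0.14). This likeness restates in part how the genes were chosen.

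Genes outside the 6 were also among the nearest. A gene with 12 equal group means would lie at 0.24 from Nnt, 0.42 from Gabra2 and 0.28 from Wdfy1. It would lie at 0.27 from Entpd4, 0.31 from Marchf1 and 0.34 from Cd59a. Several of the distances given here are not far below these, so nearest does not always mean close. Nnt was nearest to Mxra8 (0.12), Mir369 (0.13) and Alg12 (0.14), with C1qtnf12 nearest after turning its sign (0.13). Mxra8, C1qtnf12 and Ints11 (0.18 from Entpd4) lie near each other on chromosome 4, with 7 tested genes between Mxra8 and C1qtnf12 and 3 between either and Ints11. Mxra8 had line means of 8.42 in WT, 8.35 in labelled KO, 8.03 in Q192 and 8.03 in R192, so unlike Nnt its means in the transgenic lines were level. For Gabra2, AI506816 on the same chromosome came after Nnt (0.26), with 246 tested genes between them, with means of 7.92, 8.03, 7.09 and 7.71. Spock3, at 0.21 from Marchf1, is on chromosome 8 with 5 tested genes between them, just past the neighbours tested above. Turned in sign, Tmem267 was nearest to both Marchf1 (0.20) and Cd59a (0.22), and Zkscan3 to Wdfy1 (0.15). Hspa4l was at 0.17 from Entpd4, Cnbd2 at 0.20 from Wdfy1 and Ogn at 0.23 from Cd59a.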

How the data were processed

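RNA of 55 cerebellum arrays was used. Per the submitters' processing notes, the deposited log2 values were made with RMA in Affymetrix Expression Console 1.1, which corrects background, equalises the distributions of the arrays and combines the probes of a set. The notes name no log base, so base 2 was taken from the range of 1.15 to 14.80. Array medians were 7.37 to 7.54. For arrays, their number limits the precision.

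Of 35557 probe sets, the 21789 with 1 gene symbol were used, giving 19938 genes (the probe set with the highest mean where there were several). The lowest 25% by mean level (under 6.44) and 3 sex-linked genes were left out, which gave the 14950 tested. Names, chromosomes and the order of neighbours came from the GRCm38.p6 gene table. Start positions in it served only to order the genes, and none is printed, as no build of the files was given.

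All arrays entered 1 limma fit (limma 3.58.1, R 4.3.3) with 12 group means and array date (2 dates in the descriptions). The 36 description numbers formed a correlated block (correlation 0.131), variance followed a trend with level, and 42 residual degrees of freedom remained. Benjamini-Hochberg adjustment was made over all genes within a comparison, with 0.05 as the threshold for passing. The fit was tested on simulated data. Figures were drawn in Python 3.11.15.

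The 6 genes and all lists were chosen with earlier results of these data known. Named genes were the 6, Pon1, neighbours and list genes that passed (at most 4 each by smallest p), the 3 most alike and the 1 most alike after turning the sign, and near copies. Alternatives changed the filter, date, number correlation, variance trend, array weights, centring, probe set rule, brainstem covariate, replicate block, gap and number of neighbours, and left out each array in turn.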

Additional observations from a re-analysis of the deposited data

Results flagged for a closer look

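In 4 of 60 pairs of gene and group, taken over groups of 4 to 6 arrays, 1 array lay far from the rest of its group. Chance does this in about 1 in 20 where pairs are independent. These pairs are not, since the 6 genes were read on the same arrays. WT vehicle replicate 4 was the highest of 6 for Nnt (9.37, next 8.98) and for Wdfy1 (9.13, next 8.86). R192 0.35 replicate 2 was the lowest of 5 for Entpd4 (9.34, next 9.83). KO vehicle replicate 4 was the highest of 4 for Marchf1 (8.21, next 7.76). WT vehicle replicate 4 also had the lowest granule neuron marker mean of the 55 arrays (9.44); the part of this in its levels was not tested.

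In 3 of 72 comparisons of a pair of lines, every CPO array of one line was above and every CPO array of the other below its vehicle mean. How often this occurs over all genes was not counted. At 0.5 mg/kg/day WT and labelled KO held 3 arrays each, few enough to fall on 1 side of a mean by chance. Wdfy1 at 0.5 mg/kg/day was 0.12 above the vehicle mean in labelled KO and moved by -0.13 in WT, a difference of 0.26. Entpd4 at 0.5 was 0.19 above in labelled KO and moved by -0.18 in WT, a difference of 0.36. In the limma fit these differences between lines did not pass (adjusted p = 0.246 for Wdfy1 and 0.263 for Entpd4). Cd59a at 0.35 was 0.10 above in labelled KO and moved by -0.26 in R192, a difference of 0.36, which was not tested.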

How the results depend on the processing

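The range of line means of each of the 6 genes was recomputed only with centred arrays, array date removed, mean probe sets and each array left out. It held in these, which is a description, since the genes were chosen for such differences. The 0 passing for CPO on the mean of 4 lines and for the difference of CPO effects held under every alternative run. For CPO in each line 1 pair passed with array quality weights (Marchf1) and 0 otherwise, including each array left out. Splits numbered 2 with a gap of 0.3, and 0 to 1 with single arrays left out. Neighbour calls (2) were 1 with the 3 nearest genes, 4 with the 10 nearest, 6 without the number correlation, 1 with the replicate block (where neither Tmem267, adjusted p = 0.051, nor D430041D05Rik, 0.0639, passed in limma), 4 with centred arrays, 29 with weights, 0 on date 1 or date 2 alone, 1 with the brainstem covariate, 1 with mean probe sets, and 0 to 6 with an array left out (1 without KO 0.35 replicate 1, 0.5 replicate 1 or vehicle replicate 2 or 3, Q192 0.35 replicate 1 or 3, 0.5 replicate 1 or 3 or vehicle replicate 1 or 4, or R192 0.35 replicate 1 or 4, 0.5 replicate 1 or 5 or vehicle replicate 2). List calls between lines (10) were 53 with weights, 0 on date 1 and 1 on date 2, and 5 to 19 with an array left out. List calls for CPO (0) were 1 without date, 6 without the number correlation, 1 with the replicate block, 2 with the filter at the 50th percentile, 18 with weights, 15 on date 2, 5 with the brainstem covariate, 1 with mean probe sets, and 0 to 18 with an array left out (18 without WT 0.35 replicate 4, 9 without WT vehicle replicate 1, 4 without KO vehicle replicate 1, 3 without KO 0.35 replicate 5, 2 without WT 0.35 replicate 2 or 5 or vehicle replicate 4, and 1 without KO 0.35 replicate 1 or 2, KO vehicle replicate 2, Q192 0.35 replicate 4, WT 0.35 replicate 1 or WT vehicle replicate 3). Fits on a single date used fewer arrays, and among them calls both fell and rose. The cause of these changes was not tested. Replicate numbers of the titles did not pair the arrays: deviations of same-numbered arrays correlated at 0.027 on average over 265 pairs. With them as a block the count for CPO on the 6 genes stayed 0.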
